A study of Rattus norvegicus with 24 samples.

Results

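The 8 genes described here are the aryl hydrocarbon receptor gene, Ahr, with 7 genes of its feedback circuit and of the enzymes that handle foreign chemicals: Ahrr, Tiparp, Cyp1a1, Cyp1b1, Nqo1, Adh7 and Aldh3a1. They were found by symbol among the 34523 genes of a count table from rat pulmonary microvascular endothelial cells (PMVECs), a line that stands for the lining of the smallest lung vessels. They were chosen on their levels and changes over the groups of the study, so their values are a description with no test, and p-values appear only for other genes. The line was wild type (WT) or carried a knockout (KO) of Pfkfb3, whose enzyme sets the level of a sugar bisphosphate that drives glycolysis. Each genotype spent 24 h in 25 mM glucose or 25 mM fructose, under normoxia or hypoxia. That gave 8 groups of 3 samples: WT and KO, each with either sugar under either oxygen condition. The sources used here do not give the clone, the oxygen level, the altered stretch of Pfkfb3 or whether the samples of a group were separate cultures, so p-values measure only the spread between samples as labelled, which may be technical. No group had both sugars or neither, so the presence of fructose and the lack of glucose cannot be told apart.

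The aryl hydrocarbon receptor is a transcription factor of the bHLH-PAS family that waits in the cytoplasm with the chaperone HSP90 and partner proteins. Planar aromatic pollutants, tryptophan products and other ligands send it to the nucleus, where it pairs with ARNT and binds a short DNA element, the xenobiotic response element. Its classic targets Cyp1a1 and Cyp1b1 encode cytochrome P450 enzymes that oxidise aromatic compounds, and CYP1B1 is the form best known from vascular cells. AHRR, the repressor of the receptor, and TIPARP, a mono-ADP-ribosyltransferase, are induced by the receptor and in turn limit it. Nqo1 encodes a quinone reductase that both the receptor and the oxidant-responsive factor NRF2 can induce. Aldh3a1 encodes an aldehyde dehydrogenase of the same target battery, and Adh7 encodes an alcohol dehydrogenase that also oxidises retinol.

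The promoters of 5 of the genes whose levels differed between the sugars are printed so that the core of the receptor's element can be seen in place. They come from RefSeq, build GRCr8, are read in the direction of the gene and run from 250 bases before to 50 bases after the annotated start. Capitals mark each GCGTG and each CACGC, which is the same core on the opposite strand.
Ahrr promoter at chr1:30821969-30822268, plus strand: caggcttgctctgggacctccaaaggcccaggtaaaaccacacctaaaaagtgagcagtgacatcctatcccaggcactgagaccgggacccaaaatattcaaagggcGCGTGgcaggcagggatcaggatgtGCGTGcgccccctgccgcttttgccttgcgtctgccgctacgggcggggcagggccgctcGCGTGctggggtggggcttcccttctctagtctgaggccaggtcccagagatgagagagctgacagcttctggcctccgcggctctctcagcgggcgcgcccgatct
Cyp1b1 promoter at chr6:21094315-21094614, plus strand: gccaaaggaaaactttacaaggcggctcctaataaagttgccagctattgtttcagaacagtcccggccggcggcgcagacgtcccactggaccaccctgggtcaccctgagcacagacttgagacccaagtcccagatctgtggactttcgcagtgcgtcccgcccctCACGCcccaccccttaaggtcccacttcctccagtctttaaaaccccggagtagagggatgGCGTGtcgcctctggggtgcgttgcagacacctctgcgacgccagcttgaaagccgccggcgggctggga
Tiparp promoter at chr2:152063519-152063818, plus strand: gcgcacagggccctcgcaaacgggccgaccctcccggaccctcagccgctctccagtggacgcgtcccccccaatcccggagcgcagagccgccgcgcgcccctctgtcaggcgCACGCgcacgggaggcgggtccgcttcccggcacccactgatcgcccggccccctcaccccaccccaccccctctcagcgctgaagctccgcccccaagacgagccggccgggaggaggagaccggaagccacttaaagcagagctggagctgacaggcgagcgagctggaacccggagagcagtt
Nqo1 promoter at chr19:52220218-52220517, minus strand: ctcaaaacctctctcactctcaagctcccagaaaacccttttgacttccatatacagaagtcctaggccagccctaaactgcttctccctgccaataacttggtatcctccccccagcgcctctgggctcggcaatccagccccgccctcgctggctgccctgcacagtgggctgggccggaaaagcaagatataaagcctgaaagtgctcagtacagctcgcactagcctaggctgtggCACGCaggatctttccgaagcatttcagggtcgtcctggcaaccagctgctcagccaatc
Adh7 promoter at chr2:229421875-229422174, plus strand: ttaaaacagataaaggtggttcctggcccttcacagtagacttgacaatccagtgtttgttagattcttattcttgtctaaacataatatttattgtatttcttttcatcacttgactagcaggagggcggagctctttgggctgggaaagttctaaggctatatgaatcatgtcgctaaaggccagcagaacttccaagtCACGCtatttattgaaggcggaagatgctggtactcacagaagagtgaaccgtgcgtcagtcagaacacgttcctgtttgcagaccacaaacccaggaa
Ahrr held 3 cores, which began at positions -142, -117 and -57 from the start of the gene. Cyp1b1 held 2, at -81 on the opposite strand and at -20. Tiparp held 1 at -136, Nqo1 held 1 at -10 and Adh7 held 1 at -49, all on the opposite strand. The longer form TNGCGTG, which contains the core, was searched on both strands too and was found in the windows of Ahrr, Cyp1b1 and Adh7. Of all 33469 rat promoters of this length, 29.7% held GCGTG and 4.89% held TNGCGTG. The Ahr window, not printed, held no core. None of the 6 windows held TGACNNNGC on either strand, the core of the NRF2 element, which 12.1% of promoters held. GC content ran from 43.0% in the Adh7 window to 74.7% in that of Ahr, beside a median of 51.7% over all promoters. A match describes letters in the window and shows no binding. The lack of a match says nothing about sequence outside these short windows, where such elements may also lie. Cyp1a1 and Aldh3a1 were not among the promoters searched.

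In Rnor_6.0, the build of the files, Ahr (ENSRNOG00000004342) lies on the minus strand of chromosome 6 at 54963990 to 55001464, and Cyp1b1 (ENSRNOG00000040287) on the same strand at 2307808 to 2316722. On the plus strand of chromosome 2 are Tiparp (ENSRNOG00000011238), at 157316266 to 157341469, and Adh7 (ENSRNOG00000032959), at 243502073 to 243516532. The other members all lie on plus strands. Ahrr (ENSRNOG00000014721) is on chromosome 1 at 31603297 to 31698329 and Cyp1a1 (ENSRNOG00000019500) on chromosome 8 at 62472095 to 62478147. Nqo1 (ENSRNOG00000012772) is on chromosome 19 at 38422164 to 38437180 and Aldh3a1 (ENSRNOG00000002331) on chromosome 10 at 47490153 to 47499876. All 8 are annotated as protein-coding, and no other gene model overlaps any of them.

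Library totals ranged from 14344010 to 23028807 counts, and levels are given as CPM, the count of a gene for every 1000000 counts of a library total scaled by edgeR's TMM factor. Of the 34523 genes, 14770 passed the filter on low counts, all 8 members among them, though Cyp1a1 passed only through the WT fructose groups. Pfkfb3 was lower in KO than in WT in every medium (log2 changes of -0.59 and -0.56 with glucose, -1.77 and -1.50 with fructose; edgeR adjusted p at most 1.46e-05) and still read 31.4 to 63.3 CPM in the KO libraries. Of the 10 endothelial markers, Cdh5, Kdr, Esam and Emcn, 4 in all, stayed under 1 CPM in every library, so some defining RNAs of the labelled cell type were close to absent. Others on the list were detected: Flt1 read 32.5 to 207 CPM, Vwf 6.55 to 64.0 CPM and Icam2 3.33 to 53.2 CPM over the libraries. Tek, Eng and Tie1 reached at most 10.9, 6.09 and 4.16 CPM. The endothelial list summed to 50.0 to 112 CPM in WT and 221 to 310 CPM in KO. The 6 fibroblast markers, mostly Col1a1 and Col1a2, summed to 5960 to 17900 CPM in WT and 2380 to 4440 CPM in KO. Among them Lum was at 0 and Dcn and Pdgfra were under 1 CPM throughout. Within WT the fibroblast sum was 12800 to 17900 CPM with glucose and 5960 to 10000 CPM with fructose. The 7 smooth muscle and pericyte markers summed to 76.3 to 104 CPM in WT glucose libraries, 205 to 332 CPM in WT fructose libraries and 162 to 288 CPM in KO, with Rgs5 at 0 throughout. The 7 markers of simple epithelium, mostly Krt8, summed to 668 to 1150 CPM in WT and 1540 to 2920 CPM in KO, and the 6 leukocyte markers to 2.50 to 5.68 and 3.02 to 19.7 CPM. All 7 airway secretory markers were under 1 CPM in every library, with Scgb3a2, Cyp2f4 and Muc5b at 0. The part of these markers in the results was not tested, and in bulk RNA fewer cells of a type and less RNA per cell cannot be told apart.

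The first comparison asked how the 8 genes differed between the sugars within each genotype and oxygen condition. Cyp1b1, Nqo1, Adh7, Ahrr and Tiparp were higher with fructose than with glucose in all 4 settings, and in none of them did the libraries of the sugars overlap. Cyp1a1, at a far lower level, also had more counts with fructose in every setting. The receptor gene Ahr itself moved little, and Aldh3a1 had no common direction.

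Cyp1b1 had wide differences between the sugars in every setting. In WT normoxia it read 42.4, 25.7 and 29.7 CPM with glucose and 255, 236 and 247 CPM with fructose, a difference of 2.91 ± 0.44 on the log2 scale (SE) or 7.54-fold. The KO normoxia libraries read 35.0, 24.7 and 24.8 CPM against 241, 249 and 251 CPM, a difference of 3.13 ± 0.44 or 8.78-fold. The fructose levels of the genotypes thus lay at the same height in normoxia. In WT hypoxia Cyp1b1 read 83.9, 30.8 and 44.8 CPM with glucose and 192, 197 and 190.0 CPM with fructose, a log2 difference of 1.87 ± 0.42. In KO hypoxia the values were 124, 28.2 and 39.7 CPM against 238, 236 and 260 CPM, a log2 difference of 1.93 ± 0.42. The fructose libraries were tightly grouped, while the first glucose library of each genotype in hypoxia stood well above the others of its group. Without KO hypoxia glucose replicate 1 the KO hypoxia difference was 2.85, and without WT hypoxia glucose replicate 1 the WT hypoxia difference was 2.35. Ranked among the 11518 genes with a mean log2 CPM of at least 1, the Cyp1b1 difference stood 18th from the top in WT normoxia and 5th in KO normoxia. In hypoxia it stood 85th in WT and 14th in KO.

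Cyp1a1, the receptor's most used reporter gene, was close to the limit of detection and is given in counts. In WT normoxia it had 0, 0 and 2 counts with glucose and 33, 18 and 16 with fructose, a ratio of 34.8 after division by library totals (95% Clopper-Pearson interval 9.26 to 293). In WT hypoxia it had 1, 0 and 0 counts against 12, 13 and 26, a ratio of 50.7 (8.69 to 2040). Every WT fructose library lay above every WT glucose library. In KO normoxia the counts were 0, 0 and 0 with glucose and 7, 6 and 4 with fructose, at least 5.44-fold higher when the glucose group is set at a floor of 3 counts in total. In KO hypoxia they were 0, 0 and 0 against 0, 9 and 0, at least 3.16-fold higher over the group, but all 9 counts came from replicate 2 and the groups overlapped at 0. Intervals and floors cover counting error only, and a count of 0 marks no detection at this depth. Its highest group mean, 0.491 CPM per kb of transcript in WT normoxia fructose, was far below that of Cyp1b1 there, 44.7 CPM per kb.

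The genes of the receptor's feedback loop differed by smaller folds. Ahrr read 32.1, 29.1 and 28.2 CPM with glucose and 82.1, 90.8 and 72.8 CPM with fructose in WT normoxia, a log2 difference of 1.46 ± 0.13 or 2.75-fold. In WT hypoxia it read 39.6, 31.7 and 30.5 CPM against 72.5, 78.6 and 65.2 CPM, a log2 difference of 1.09 ± 0.13. The repressor gene was thus about as high in fructose under either oxygen condition in WT. In KO normoxia it read 41.2, 33.3 and 37.4 CPM against 67.1, 66.5 and 72.5 CPM, a log2 difference of 0.88 ± 0.13. In KO hypoxia it read 52.9, 34.2 and 40.1 CPM against 57.2, 62.2 and 63.0 CPM, a log2 difference of 0.52 ± 0.13, or 0.71 without KO hypoxia glucose replicate 1. By their means, the KO groups were higher with glucose and lower with fructose than their WT counterparts.

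Tiparp, whose product ADP-ribosylates the receptor, read 29.6, 25.9 and 30.7 CPM with glucose and 50.0, 49.9 and 46.6 CPM with fructose in WT normoxia, a log2 difference of 0.76 ± 0.089. KO normoxia gave 31.6, 30.2 and 27.3 CPM against 58.2, 58.7 and 59.5 CPM, a log2 difference of 0.99 ± 0.089. Glucose levels of the genotypes overlapped there and fructose levels did not. In WT hypoxia Tiparp read 33.7, 31.1 and 38.9 CPM against 70.9, 71.2 and 69.4 CPM, a log2 difference of 1.03 ± 0.088. KO hypoxia gave 49.4, 41.0 and 43.5 CPM against 76.9, 71.4 and 80.4 CPM, a log2 difference of 0.77 ± 0.087. Hypoxia and fructose together gave the highest Tiparp levels in both genotypes.

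Nqo1, the quinone reductase gene, was the most abundant of the 8 per kb of transcript in every group. In WT normoxia it read 134, 123 and 112 CPM with glucose and 741, 697 and 474 CPM with fructose, a log2 difference of 2.37 ± 0.25 or 5.18-fold. In KO normoxia it read 164, 130.0 and 126 CPM against 589, 596 and 489 CPM, a log2 difference of 1.99 ± 0.25. Replicate 3 was the lowest fructose library in both genotypes. In WT hypoxia Nqo1 read 130.0, 100.0 and 76.1 CPM against 467, 476 and 390.0 CPM, a log2 difference of 2.12 ± 0.25. In KO hypoxia it read 191, 96.4 and 96.1 CPM against 285, 310.0 and 243 CPM, a log2 difference of 1.13 ± 0.25. KO hypoxia fructose was the lowest of the fructose groups, and KO hypoxia glucose replicate 1 was again the high glucose library: without it the log2 difference was 1.54.

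Adh7, the retinol-oxidising alcohol dehydrogenase gene, was higher with fructose in both genotypes, from very different starting levels. In WT normoxia it read 34.9, 32.5 and 41.4 CPM with glucose and 101, 107 and 94.5 CPM with fructose, a log2 difference of 1.48 ± 0.23. In KO normoxia it read 6.57, 6.75 and 7.58 CPM against 31.9, 28.9 and 40.1 CPM, a log2 difference of 2.27 ± 0.26 or 4.82-fold. KO cells with fructose thus reached the range of WT cells with glucose. In WT hypoxia Adh7 read 34.6, 25.0 and 36.3 CPM against 78.7, 83.5 and 89.0 CPM, a log2 difference of 1.39 ± 0.23. In KO hypoxia it read 12.9, 5.44 and 4.82 CPM against 22.4, 20.6 and 26.7 CPM, a log2 difference of 1.58 ± 0.25, or 2.17 without KO hypoxia glucose replicate 1.

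Aldh3a1, the aldehyde dehydrogenase of the battery, did not share this pattern. In WT normoxia it read 6.28, 5.08 and 9.86 CPM with glucose and 11, 6.94 and 16 CPM with fructose, and the groups overlapped. In WT hypoxia it was lower with fructose, at 3.94, 3.11 and 4.24 CPM against 8.62, 4.68 and 7.59 CPM, a log2 difference of -0.89 ± 0.32. In KO its level was 0.148 to 0.769 CPM, or 3 to 15 counts a library, and the sugars overlapped in both oxygen conditions. The log2 differences there were 0.26 ± 0.44 in normoxia and 0.89 ± 0.50 in hypoxia.

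Ahr, the receptor itself, stayed within 44.3 to 79.4 CPM over all 24 libraries. In WT normoxia it read 63.7, 64.2 and 62.2 CPM with glucose and 74.7, 72.8 and 72.3 CPM with fructose, a log2 difference of 0.21 ± 0.085 with no overlap. The KO normoxia values were 77.8, 76.5 and 71.8 CPM against 78.8, 73.3 and 74.9 CPM, and the sugars overlapped. In WT hypoxia it read 60.4, 57.7 and 64.8 CPM against 61.0, 59.2 and 44.3 CPM. Those groups overlapped too, and the log2 difference of -0.15 ± 0.086 became -0.02 without WT hypoxia fructose replicate 3 and -0.34 with library totals in place of TMM. In KO hypoxia Ahr was lower with fructose, at 69.3, 64.8 and 69.7 CPM against 71.4, 79.4 and 77.2 CPM, a log2 difference of -0.16 ± 0.085.

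**Figure D1:**
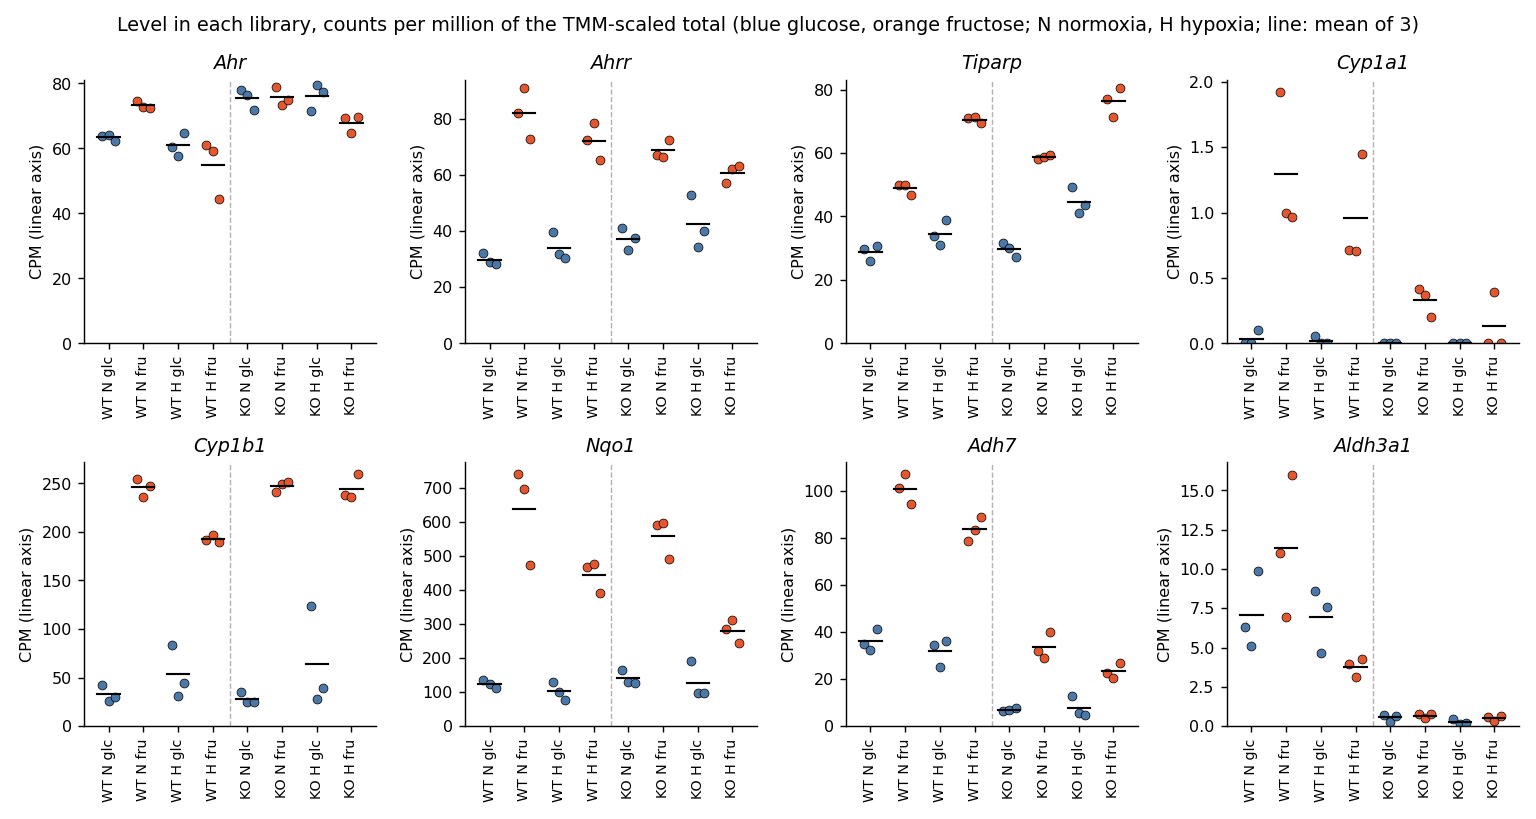
Level of each of the 8 genes in CPM on a linear axis from 0, with 1 point for each of the 3 libraries of a group (blue glucose, orange fructose; N normoxia, H hypoxia) and a line at their mean. Cyp1b1, Nqo1, Adh7, Ahrr and Tiparp stand higher in each fructose group than in the matching glucose group, Ahr stays between 44.3 and 79.4 CPM, and Adh7 and Aldh3a1 are lower in KO than in WT.

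Members past the threshold of an edgeR adjusted p of 0.05 are counted only to set them beside the share of all 14770 genes, since the rule used these contrasts, and nothing is read from the counts. With fructose in WT normoxia 6 members were past it in the higher direction and 0 in the lower, beside 19.9% and 17.9% of all genes. In WT hypoxia the members were 6 and 1, beside 24.6% and 20.9%. In KO normoxia they were 5 and 0, beside 1.14% and 0.65%. In KO hypoxia they were 5 and 0, beside 2.69% and 2.73%. By lack of overlap between libraries, 7 members were higher with fructose in WT normoxia and 0 lower, beside 23.8% and 21.6% of all genes. In WT hypoxia 6 were separated upward and 1 downward, beside 28.6% and 24.8%. In KO normoxia they were 6 and 0, beside 10.3% and 8.17%, and in KO hypoxia 5 and 1, beside 12.4% and 11.9%. The higher members include Cyp1a1 in both WT settings by either count and in KO normoxia by lack of overlap. Cyp1a1 passed the filter only through the WT fructose groups.

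The second comparison set KO against WT in each medium. Adh7 and Aldh3a1 were lower in KO in all 4 media, with no overlap of libraries in any. The AHR feedback genes and Cyp1b1 differed by at most 0.37 on the log2 scale in either direction, and Ahr was slightly higher in KO in 3 of the 4.

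Adh7 was lower in KO by 5.18-fold in normoxia glucose and 2.99-fold in normoxia fructose (log2 changes of -2.37 ± 0.26 and -1.58 ± 0.23). In hypoxia the log2 changes were -2.04 ± 0.25 with glucose and -1.85 ± 0.23 with fructose. Aldh3a1 was lower by 12.5-fold in normoxia glucose, 16.6-fold in normoxia fructose, 25.4-fold in hypoxia glucose and 7.44-fold in hypoxia fructose. Its 4 log2 changes were -3.64 ± 0.39, -4.05 ± 0.38, -4.67 ± 0.42 and -2.89 ± 0.39, and each KO level rests on few counts. Without KO hypoxia glucose replicate 1 the hypoxia glucose change became -2.64 for Adh7 and -5.22 for Aldh3a1. In this table KO changes run together along chromosomes, so the tested genes up to 10 places away on either side were set beside each member. The 20 neighbours of Adh7 had a median log2 change of 0.26, 0.09, 0.21 and 0.18 in the 4 media, normoxia before hypoxia and glucose before fructose in each. Those of Aldh3a1 had medians of -0.45, -0.35, -0.46 and -0.47, in the same direction as the gene. Less these medians, the log2 change of Aldh3a1 ran from -4.21 to -2.42 and that of Adh7 from -2.64 to -1.67.

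Ahrr changed direction with the medium. With glucose in normoxia it was higher in KO (37.3 ± 3.97 against 29.8 ± 2.05 CPM, mean ± SD, n = 3), and with fructose in normoxia it was lower (68.7 ± 3.31 against 81.9 ± 9.03 CPM), without overlap in either. The gap with fructose was narrow, from 72.5 CPM in the highest KO library to 72.8 CPM in the lowest WT library. In hypoxia it was lower with fructose (60.8 ± 3.15 against 72.1 ± 6.73 CPM), and with glucose the genotypes overlapped. With library totals in place of TMM, the genotypes overlapped with fructose too, under either oxygen condition. The neighbours of Ahrr had medians of -0.22, -0.18, -0.38 and -0.29. Less these medians, its log2 change was 0.55 and 0.71 with glucose in normoxia and hypoxia, and -0.07 and 0.05 with fructose.

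Ahr was higher in KO by 0.25 ± 0.085 on the log2 scale in normoxia glucose, 0.32 ± 0.085 in hypoxia glucose and 0.31 ± 0.086 in hypoxia fructose, and the genotypes overlapped in normoxia fructose. Its neighbours had medians of 0.17, 0.26, 0.29 and 0.21, so that the gene less its neighbours differed by 0.10 or less in those 3 media and by -0.22 in normoxia fructose. Tiparp was higher in KO by 0.27 ± 0.087 in normoxia fructose, 0.37 ± 0.088 in hypoxia glucose and 0.11 ± 0.086 in hypoxia fructose. The neighbours of Tiparp had medians of -0.12, -0.25, -0.37 and -0.16, and less these its log2 change was 0.16, 0.52, 0.74 and 0.27. Cyp1b1 overlapped between the genotypes in 3 media and was higher in KO in hypoxia fructose, at 245 ± 13 against 193 ± 3.9 CPM. Nqo1 also overlapped in 3 media and was lower in KO in hypoxia fructose, at 279 ± 34.2 against 444 ± 47.4 CPM, a log2 change of -0.67 ± 0.24. Cyp1a1 had 17 counts over the 3 KO libraries and 67 over the 3 WT libraries in normoxia fructose, and 9 against 51 in hypoxia fructose.

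Past the edgeR threshold, 2 members were higher and 2 lower in KO in normoxia glucose, beside 22.7% and 23.7% of all genes. In normoxia fructose the members were 1 and 3, beside 25.7% and 28%. In hypoxia glucose they were 3 and 2, beside 24.3% and 24.1%. In hypoxia fructose they were 1 and 4, beside 25.7% and 28.8%. By lack of overlap, 2 members were higher and 2 lower in normoxia glucose, beside 26.6% and 26.7% of all genes, and 1 and 4 in normoxia fructose, beside 28.7% and 30.6%. In hypoxia they were 2 and 2 with glucose, beside 28.7% and 27.6%, and 3 and 5 with fructose, beside 28.5% and 31.6%. With fructose, the lower members include Cyp1a1 by either count under both oxygen conditions, a gene that passed the filter only through the WT fructose groups. Nothing is read from these counts either.

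**Figure D2:**
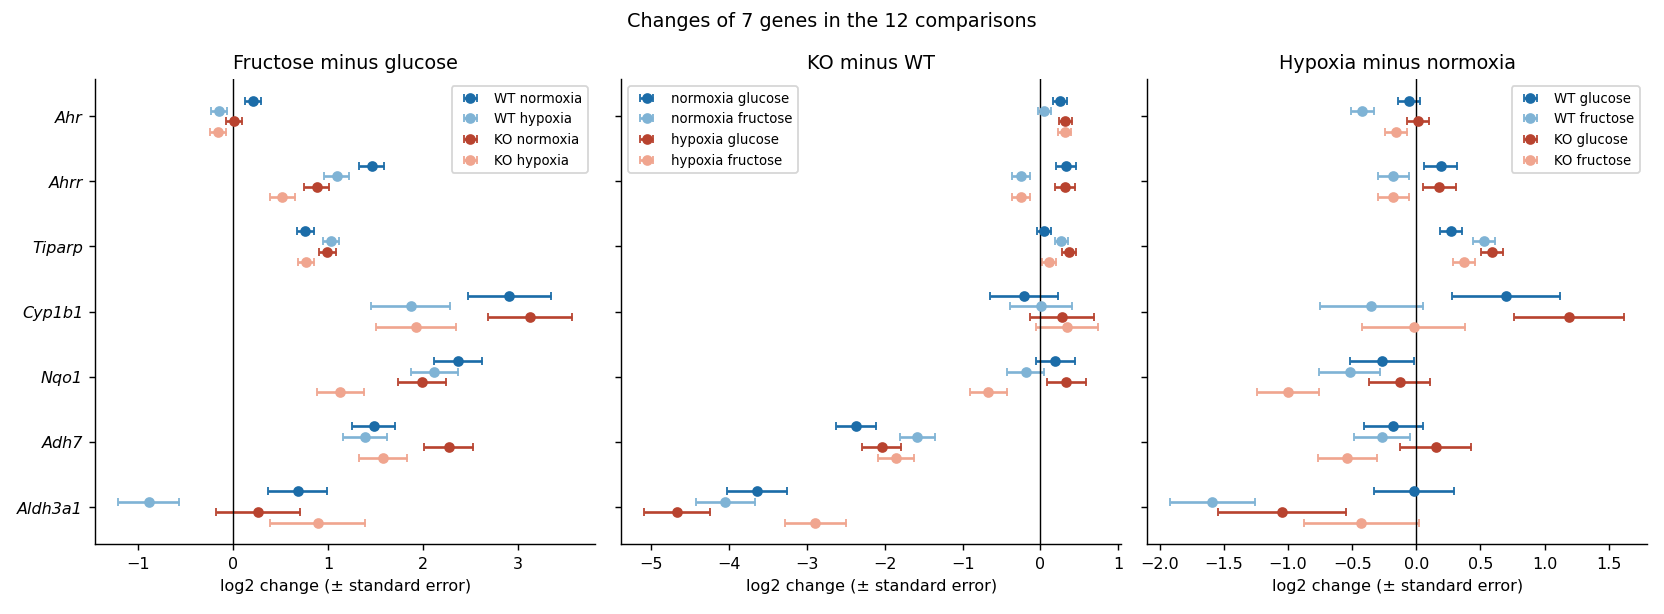
Log2 change (horizontal axis, bars: standard error) of 7 genes in the sugar, genotype and oxygen comparisons, with 1 point for each of the 4 settings of a comparison and Cyp1a1 left out for its low counts. Adh7 and Aldh3a1 lie below 0 in KO in all 4 media, and Cyp1b1, Nqo1, Adh7, Ahrr and Tiparp lie above 0 with fructose in all 4 settings.

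The third comparison set hypoxia against normoxia within each genotype and sugar. Tiparp was higher in hypoxia in all 4 settings, and no other member had a common direction without overlap. Its means in normoxia and hypoxia were 28.8 ± 2.51 and 34.6 ± 3.93 CPM in WT glucose and 48.9 ± 1.93 and 70.5 ± 0.995 CPM in WT fructose. In KO the means were 29.7 ± 2.19 and 44.6 ± 4.28 CPM with glucose, then 58.8 ± 0.634 and 76.2 ± 4.55 CPM with fructose. No hypoxia library overlapped its normoxia group, and the log2 differences ran from 0.27 ± 0.089 in WT glucose to 0.59 ± 0.089 in KO glucose.

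With fructose, several members were lower in hypoxia. Ahr differed by -0.42 ± 0.086 in WT fructose, or -0.29 without WT hypoxia fructose replicate 3, and by -0.16 ± 0.085 in KO fructose. Nqo1 differed by -1.0 ± 0.24 in KO fructose and overlapped in the other 3 settings. Adh7 differed by -0.27 ± 0.22 in WT fructose and -0.54 ± 0.23 in KO fructose. Aldh3a1 differed by -1.59 ± 0.33 in WT fructose, at 3.76 ± 0.585 against 11.3 ± 4.55 CPM. Ahrr differed by -0.18 ± 0.12 in KO fructose, and Cyp1b1 by -0.35 ± 0.40 in WT fructose. The libraries did not overlap in any of these 8 settings.

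With glucose, no member other than Tiparp was separated by oxygen in either genotype. Cyp1b1 had the largest difference, 1.19 ± 0.43 in KO glucose, and it rested on KO hypoxia glucose replicate 1, without which it was 0.27. Without that library the KO glucose difference of Adh7 turned from 0.15 to -0.44 and that of Nqo1 moved from -0.13 to -0.54. In WT glucose the Cyp1b1 difference of 0.70 ± 0.42 became 0.21 without WT hypoxia glucose replicate 1. Past the edgeR threshold, 0 members were higher and 0 lower in WT glucose, beside 3.39% and 1.43% of all genes. In WT fructose the members were 1 and 2, beside 11.3% and 9.91%. In KO glucose they were 1 and 0, beside 7.96% and 6.07%. In KO fructose they were 1 and 1, beside 9.71% and 10.3%. By lack of overlap, 1 member was higher and 0 lower in WT glucose, beside 10.3% and 10.3% of all genes, and 1 and 4 in WT fructose, beside 18.1% and 16.5%. In KO they were 1 and 0 with glucose, beside 16.8% and 15.5%, and 1 and 4 with fructose, beside 17.4% and 19.4%.

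The difference between the sugar changes of the genotypes was also taken, as the log2 change of KO less that of WT, with no test for the members. For Ahrr it was -0.58 ± 0.18 in normoxia and -0.57 ± 0.18 in hypoxia. For Cyp1b1 it was 0.22 ± 0.59 and 0.07 ± 0.57, but single libraries moved it. In normoxia it ran from -0.01 without WT normoxia glucose replicate 1 to 0.41 without KO normoxia glucose replicate 1. In hypoxia it was 0.99 without KO hypoxia glucose replicate 1 and -0.42 without WT hypoxia glucose replicate 1. For Nqo1 it was -0.38 ± 0.34 in normoxia and -1.0 ± 0.34 in hypoxia, or -0.59 without KO hypoxia glucose replicate 1, so that its sugar difference was smaller in KO. Tiparp had values of opposite sign, 0.22 ± 0.13 and -0.26 ± 0.12. Adh7 had 0.79 ± 0.34 and 0.19 ± 0.34, the latter 0.78 without KO hypoxia glucose replicate 1 and -0.05 without KO hypoxia glucose replicate 3. Ahr had -0.20 ± 0.12 and -0.01 ± 0.12, the latter between -0.14 and 0.07 with 1 library left out. Aldh3a1 had -0.41 ± 0.55 in normoxia, or -0.08 without WT normoxia fructose replicate 3 and -0.73 without WT normoxia glucose replicate 3, and 1.77 ± 0.60 in hypoxia.

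Per kb of transcript, a scale on which levels of different genes can be set side by side, the group means of the members kept a common order only in part. Nqo1 led in every group, from 64.6 CPM per kb in WT hypoxia glucose to 403 in WT normoxia fructose. With fructose, Cyp1b1 ran from 35.1 to 45.0 CPM per kb, close to Adh7 at 49.8 and 41.4 in WT but above Adh7 at 16.6 and 11.5 in KO. Tiparp ran from 20.8 to 32.4 and Ahrr from 12.9 to 17.4 CPM per kb with fructose, and Ahr from 10.7 to 14.8 over all groups. With glucose, Ahrr at 6.34 to 9.03 CPM per kb was below Ahr in each group, and with fructose in WT it was above Ahr. Aldh3a1 was the lowest member after Cyp1a1, at 0.152 to 6.47 CPM per kb.

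Within genes, the order of the 8 group means showed how the factors combined. Ahrr was highest in WT normoxia fructose, WT hypoxia fructose and KO normoxia fructose, neighbours in the order whose libraries overlapped, followed without overlap by KO hypoxia fructose and then by the 4 glucose groups, which overlapped each other in turn. Cyp1b1 was highest in KO normoxia fructose, WT normoxia fructose and KO hypoxia fructose, which overlapped, then WT hypoxia fructose, then the glucose groups. Tiparp ran from KO hypoxia fructose through WT hypoxia fructose and KO normoxia fructose to WT normoxia fructose, each apart from the next, and WT normoxia fructose overlapped KO hypoxia glucose. Nqo1 ran from WT and KO normoxia fructose, which overlapped, to WT hypoxia fructose, KO hypoxia fructose and the glucose groups. Adh7 was highest in WT normoxia fructose and WT hypoxia fructose, which did not overlap, and lowest in KO hypoxia glucose and KO normoxia glucose, which did.

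Other genes of the pathway were taken from lists of 159 symbols around the receptor, of which 146 matched the table and 113 passed the filter. In WT normoxia 39 rose and 10 fell with fructose (edgeR, adjusted p under 0.05), or 34.5% and 8.85% of them beside 19.9% and 17.9% of all genes. In WT hypoxia 40 rose and 15 fell, or 35.4% and 13.3% beside 24.6% and 20.9%. With library totals in place of TMM the WT hypoxia split was 34 and 30, under a shift of -0.174 in the median log2 change of all genes. In KO normoxia 5 rose and 1 fell, or 4.42% and 0.885% beside 1.14% and 0.65%. In KO hypoxia 9 rose and 2 fell, or 7.96% and 1.77% beside 2.69% and 2.73%, and 15 and 3 with DESeq2 or with only the groups compared. Only 3 were called in KO normoxia when KO normoxia glucose replicate 3, KO normoxia fructose replicate 1 or KO normoxia fructose replicate 2 was left out. The median log2 change over the 113 genes was 0.15, 0.23, 0.11 and 0.05 in these settings, beside 0.016, 0.01, 0 and 0.001 over all 14770 genes.

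Most of the NRF2 list moved one way in WT. Of its 13 tested genes, 11 rose and 0 fell with fructose in WT normoxia and again in WT hypoxia (11 and 1 there with library totals), with medians of 0.70 and 0.76 on the log2 scale. In KO normoxia 1 rose and in KO hypoxia 2 rose and 1 fell, with medians of 0.13 and 0.11. Slc7a11, the cystine importer, rose in WT normoxia from 22.1 ± 2.99 to 105 ± 23.2 CPM, a log2 change of 2.25 ± 0.20 (edgeR adjusted p = 2.96e-08). In KO normoxia it read 42.5 ± 7.68 and 52.1 ± 5.58 CPM (edgeR adjusted p = 0.61), and in KO hypoxia it rose by 1.02 ± 0.19 on the log2 scale (edgeR adjusted p = 0.00282). Ftl1, a ferritin light chain, rose by 1.66 ± 0.12 in WT normoxia and 1.51 ± 0.12 in WT hypoxia, with edgeR adjusted p of 9.17e-11 and 2.04e-10, though near-identical ferritin copies make its count uncertain. Its KO log2 values were 0.28 ± 0.11 and 0.06 ± 0.11 (edgeR adjusted p = 0.292 and 0.852).

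The regulators of that pathway rose by less. Nfe2l2, which encodes NRF2, went from 231 ± 5.28 to 280.0 ± 4.67 CPM in WT normoxia and from 249 ± 9.55 to 313 ± 5.88 CPM in WT hypoxia, with edgeR adjusted p of 0.000652 and 7.2e-05. In KO its log2 values were 0.11 ± 0.06 and 0.15 ± 0.06 (edgeR adjusted p = 0.527 and 0.179). Keap1, the NRF2 inhibitor, rose by 0.42 ± 0.082 in WT normoxia and 0.76 ± 0.082 in WT hypoxia (edgeR adjusted p = 0.000211 and 4.17e-08). Gclc, the catalytic subunit of glutathione synthesis, rose by 0.70 ± 0.094 and 0.62 ± 0.094 with fructose in WT (edgeR adjusted p = 1.76e-06 and 6.64e-06).

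Reductases and conjugating enzymes that share the handling of reactive chemicals with Nqo1 gave a mixed picture. Akr1b8, an aldo-keto reductase, rose in WT from 132 ± 4.49 to 673 ± 195 CPM in normoxia and from 140.0 ± 8.27 to 703 ± 159 CPM in hypoxia, with edgeR adjusted p of 1.54e-07 and 1.02e-07. Ptgr1, a reductase of prostaglandins and reactive alkenals, rose in all 4 settings, by 1.61 ± 0.20 and 2.03 ± 0.20 in WT and 1.31 ± 0.20 and 1.15 ± 0.20 in KO (edgeR adjusted p at most 0.00115). Mgst2, a membrane glutathione transferase, also rose in all 4, by 1.08 ± 0.11 and 1.10 ± 0.11 in WT and 0.62 ± 0.11 and 0.57 ± 0.11 in KO (edgeR adjusted p at most 0.00167). Nqo2, the relative of Nqo1, went the other way in WT hypoxia, with a log2 change of -0.92 ± 0.26 (edgeR adjusted p = 0.00509). Of the 12 quinone and carbonyl reductases, 3 rose and 2 fell in WT normoxia, 4 and 3 in WT hypoxia (3 and 4 with library totals), 2 and 0 in KO normoxia and 2 and 0 in KO hypoxia. Of the 17 conjugating enzymes, 7 rose and 0 fell in each WT setting (6 and 2 in hypoxia with library totals), 1 and 0 in KO normoxia and 2 and 0 in KO hypoxia. Akr1b8 in KO rose by 1.05 ± 0.21 in normoxia and 0.98 ± 0.21 in hypoxia, with edgeR adjusted p of 0.0127 and 0.0101. Without KO normoxia glucose replicate 3, KO normoxia fructose replicate 1 or KO normoxia fructose replicate 2 the normoxia p was up to 0.0861, a fit of only the groups compared gave 0.139, and without KO hypoxia glucose replicate 3 the hypoxia p was 0.0533.

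Of the 9 tested partners of the receptor, 3 rose and 0 fell with fructose in each WT setting, 33.3% beside the 19.9% and 24.6% of all genes that rose, but 2 rose and 3 fell in WT hypoxia with library totals. Hsp90ab1, the chaperone, rose by 0.35 ± 0.072 and 0.60 ± 0.072 in WT (edgeR adjusted p = 0.000349 and 2.06e-07). The coactivator Ncoa1, named after its values were seen, rose by 0.45 and 0.85 in WT (edgeR adjusted p = 0.000911 and 1.71e-07), and its KO values were 0.19 and 0.10 (edgeR adjusted p = 0.47 and 0.681). Arnt, the dimer partner, had group means of 49.8 to 63.6 CPM. Its sugar log2 values lay between -0.03 and 0.15, none past the edgeR threshold (adjusted p of 0.157 or more). Its genotype calls in normoxia glucose, normoxia fructose and hypoxia glucose (edgeR adjusted p = 0.0323, 0.0338 and 0.0142) were fragile. Leaving out single libraries ended each of them, with adjusted p up to 0.115, 0.118 and 0.106. The third that rose in WT normoxia was Arnt2, also named after its values were seen, by 0.48 (edgeR adjusted p = 0.0451). Leaving out any of 13 single libraries ended that call, with adjusted p up to 0.358, and so did 4 other settings, with adjusted p up to 0.139. Arnt2 fell with fructose in KO, with log2 changes of -0.96 in normoxia and -0.82 in hypoxia (edgeR adjusted p = 0.0294 and 0.017). Leaving out any of the 6 libraries of the normoxia comparison ended the KO call there, with adjusted p up to 0.134, and KO hypoxia glucose replicate 1 or 3 or KO hypoxia fructose replicate 2 or 3 ended the other, up to 0.107. Of the 6 other target genes tested, 3 rose and 0 fell in each WT setting, beside the 19.9% and 24.6% of all genes that rose. The WT normoxia count includes Ereg at an edgeR adjusted p of 0.0491. In KO only Areg was called, rising by 0.79 in hypoxia (edgeR adjusted p = 0.0438). Ereg and Areg were named after their values were seen. Among the 6, Serpinb2, a serine protease inhibitor, rose by 0.78 ± 0.18 and 1.31 ± 0.18 in WT (edgeR adjusted p = 0.00216 and 8.25e-06). Its KO values were 0.43 and 0.54 (edgeR adjusted p = 0.354 and 0.104). Cyp1a2, the close relative of Cyp1a1, had 0 counts in every library. Cyp2s1 had group means of 0.245 to 0.777 CPM, and no sugar difference passed the edgeR threshold (adjusted p of 0.0704 or more).

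**Figure D3:**
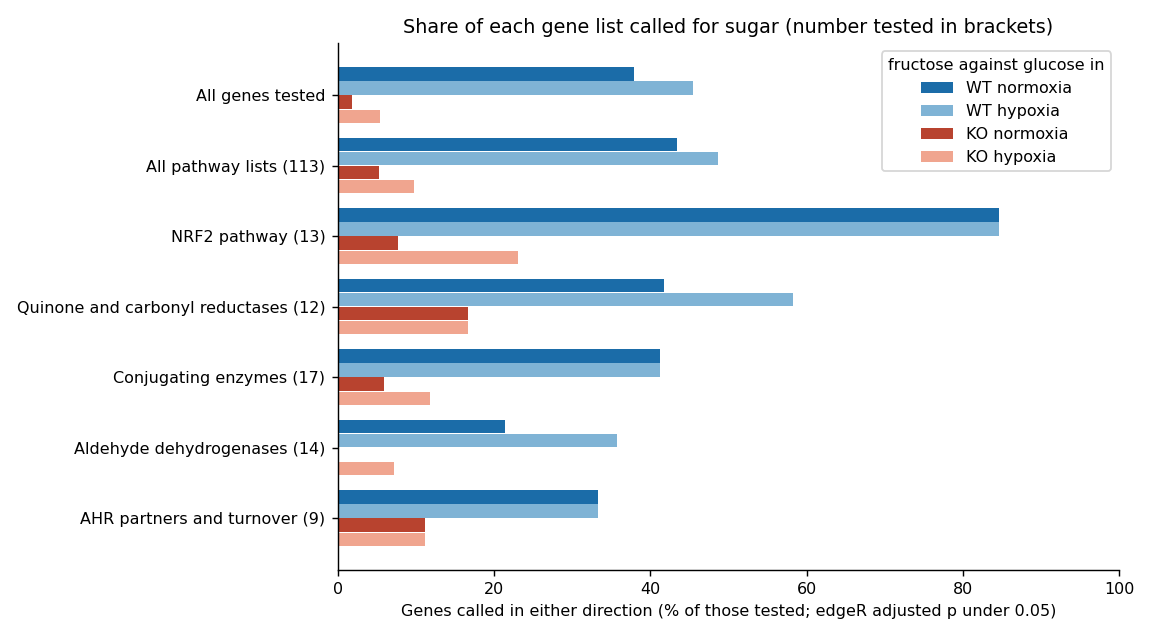
Share of the tested genes of 5 lists, of all pathway lists and of all genes that passed an edgeR adjusted p of 0.05 for fructose against glucose in either direction, in percent, with 1 bar for each genotype and oxygen condition. The NRF2 list has the longest bars in WT, at 84.6% in normoxia and in hypoxia, and short ones in KO.

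The difference between the genotypes' sugar changes could be tested for these genes. In normoxia 26 of the 113 differed, 5 with a larger value in KO and 21 with a smaller, beside 19.1% of all genes in either direction. In hypoxia 40 differed, 11 and 29, beside 25.6%. With library totals the hypoxia split was 18 and 22, under a shift of 0.171 in the median of all genes. In the NRF2 list 6 of 13 had a smaller change in KO in normoxia and 8 of 13 in hypoxia, and 0 had a larger one in either. Slc7a11 differed by -1.96 ± 0.27 in normoxia and Ftl1 by -1.38 ± 0.16 (edgeR adjusted p = 3.96e-05 and 1.7e-06). Gstp1, a glutathione transferase with near-identical copies, differed by -0.75 ± 0.11 in normoxia and -1.07 ± 0.11 in hypoxia (edgeR adjusted p = 4.19e-05 and 2.75e-07). Aldh1a3, a retinaldehyde dehydrogenase, differed the other way by 0.90 ± 0.22 and 1.64 ± 0.23 (edgeR adjusted p = 0.0054 and 9.77e-06). It fell with fructose in WT from 4.91 ± 0.242 to 2.84 ± 0.385 CPM in normoxia and read 15.6 ± 2.93 and 16.9 ± 1.4 CPM in KO.

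**Figure D4:**
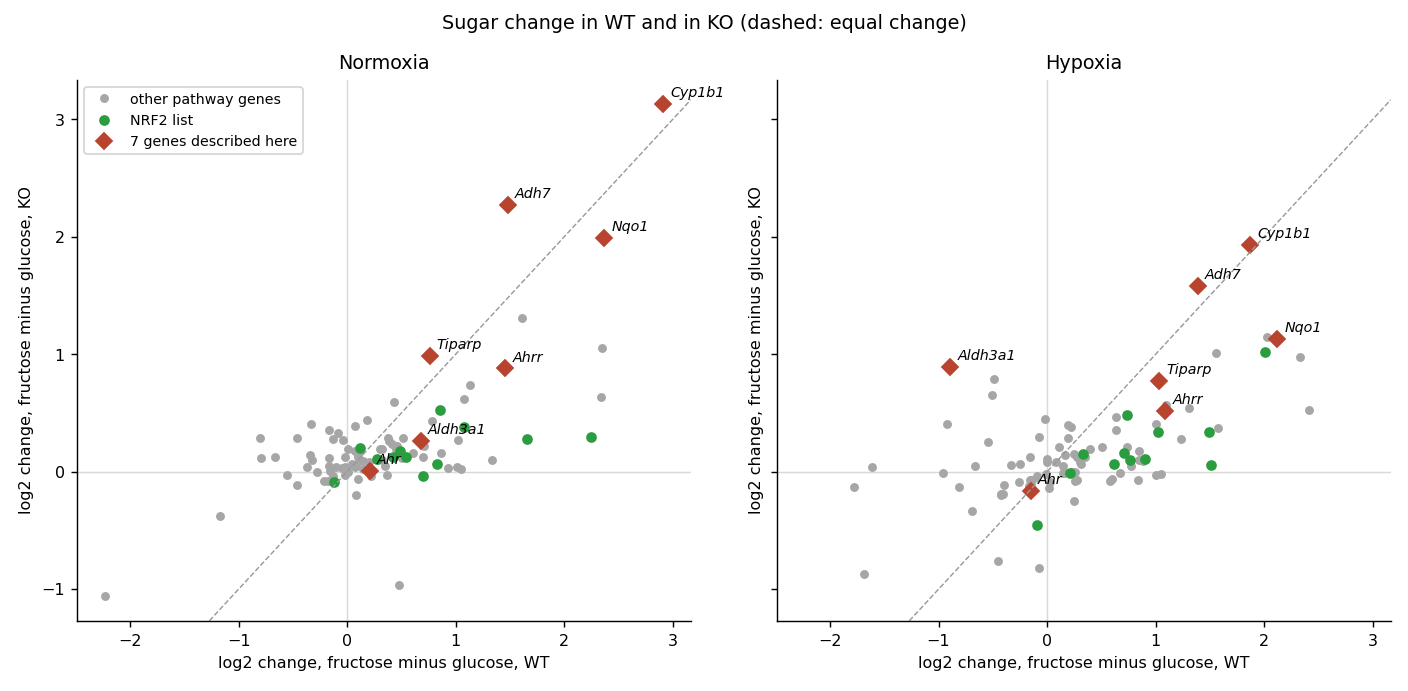
Log2 change with fructose in KO against that in WT, in normoxia and in hypoxia, for 7 of the members (red diamonds, named), the NRF2 list (green) and the other pathway genes (grey), all with a mean log2 CPM of at least 1 apart from the members. Cyp1b1 lies near the dashed line of equal change in both panels, though its hypoxia place moves with single glucose libraries, Ahrr and Nqo1 lie below it, and most NRF2 genes lie to the right of 0 and below the line.

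Between genotypes, 28 of the pathway genes were higher and 39 lower in KO in normoxia glucose, or 24.8% and 34.5% beside 22.7% and 23.7% of all genes. In normoxia fructose 17 and 53 were, or 15.0% and 46.9% beside 25.7% and 28%. In hypoxia glucose the counts were 30 and 43, or 26.5% and 38.1% beside 24.3% and 24.1%. In hypoxia fructose they were 18 and 58, or 15.9% and 51.3% beside 25.7% and 28.8%. Of the 17 conjugating enzymes, 8, 10, 7 and 11 fell and 1, 1, 2 and 1 rose. Mgst1, a microsomal glutathione transferase, fell from 116 ± 22.7 to 6.79 ± 2.79 CPM in normoxia glucose, and its 4 log2 changes lay between -4.63 and -3.91 (edgeR adjusted p at most 3.66e-09). Ephx1, the microsomal epoxide hydrolase, had log2 changes from -3.37 to -2.95 (edgeR adjusted p at most 1.4e-09). Of the 14 other aldehyde dehydrogenases, 6, 7, 7 and 9 fell and 4, 3, 5 and 3 rose. Aldh2, the mitochondrial form, had log2 changes from -1.13 to -0.93, and Aldh3a2, the fatty aldehyde dehydrogenase and relative of Aldh3a1 in the same subfamily, had changes from -0.86 to -0.48, with edgeR adjusted p of at most 3.59e-07. Among those that rose, Aldh1a3 was higher in KO in every medium by 1.67 to 3.59 (edgeR adjusted p at most 4.9e-09). Por, which passes electrons to the P450 enzymes, had log2 changes from -0.61 to -0.30 (edgeR adjusted p at most 0.00716), the last of which, in hypoxia fructose, had an adjusted p of 0.062 with library totals. Parp3, a relative of Tiparp, rose by 0.50 to 0.73 (edgeR adjusted p at most 2.36e-06).

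In hypoxia 4 of the pathway genes rose and 4 fell in WT glucose, or 3.54% and 3.54% beside 3.39% and 1.43% of all genes. In WT fructose 10 rose and 14 fell, or 8.85% and 12.4% beside 11.3% and 9.91%. In KO glucose the counts were 10 and 12, or 8.85% and 10.6% beside 7.96% and 6.07%, and in KO fructose 9 and 17, or 7.96% and 15.0% beside 9.71% and 10.3%. The WT fructose split was 8 and 22 with library totals, under a shift of -0.116 in the median of all genes. In WT glucose the count of 8 became 5 without WT normoxia glucose replicate 1, WT hypoxia glucose replicate 1 or WT hypoxia glucose replicate 3, 5 with no filter on low counts and 4 with only the groups compared. In KO glucose the count of 22 became 13 without KO normoxia glucose replicate 2 and 14 without KO hypoxia glucose replicate 1 or KO hypoxia glucose replicate 3. Gclc rose in all 4 settings, by 0.61, 0.52, 0.76 and 0.87 on the log2 scale, each ± 0.094 (edgeR adjusted p at most 0.000193). Aldh2 fell in all 4, with log2 changes from -0.64 to -0.39 (edgeR adjusted p at most 0.00678). Kyat1, a kynurenine transaminase, rose in WT fructose by 1.24 ± 0.20, in KO glucose by 1.43 ± 0.21 and in KO fructose by 1.57 ± 0.21 (edgeR adjusted p at most 6.36e-05). It was also called in WT glucose (edgeR adjusted p = 0.0413), but leaving out any of 7 single libraries ended that call, with adjusted p up to 0.173.

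The genes most like each member were taken by Pearson correlation of log2 CPM over the 8 group means among 10832 genes, a description in which all points share the same libraries. For Ahrr they were Akr1b8, Phlda1 and Ccdc91, at 0.9741, 0.9715 and 0.9705. For Nqo1 the closest was again Phlda1, at 0.9785. For Cyp1b1 they were Gnpda2, Elovl1 and Has1, at 0.9843, 0.9497 and 0.9488. For Tiparp the closest were Mblac2 and Etv5, at 0.9777 and 0.968. For Cyp1a1, with its low counts, they were Mgst2, Ppp2r5b and Erap1, at 0.9796, 0.9776 and 0.9762. For Adh7 the closest was Rabif at 0.9879, for Aldh3a1 Zdhhc17 at 0.9943 and for Ahr Ehbp1l1 at 0.9778. Among the members themselves, Ahrr correlated at 0.96 with Nqo1 and 0.94 with Cyp1b1, and Cyp1b1 at 0.90 with Tiparp and with Nqo1. Tiparp correlated at 0.83 with Ahrr and 0.72 with Nqo1. With these 4 genes Adh7 lay between 0.38 and 0.66, Aldh3a1 between -0.23 and 0.13 and Ahr between -0.15 and 0.05.

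After each genotype's mean was removed, the gene closest to Cyp1b1 was Rmdn2, at 0.9921. Rmdn2 (ENSRNOG00000006082) lies next to it in the genome, on the plus strand of chromosome 6 at 2216623 to 2280777, with 27031 bases between the gene models. Its level was low, at 1.86 ± 0.493 and 3.73 ± 0.718 CPM in WT normoxia with glucose and fructose, then 2.39 ± 0.539 and 4.68 ± 0.632 CPM in KO normoxia. In hypoxia it read 2.09 ± 0.43 and 3.06 ± 0.224 CPM in WT, then 3.08 ± 0.1 and 4.64 ± 0.523 CPM in KO. Rmdn2 was named by this likeness, so its changes are a description. Its log2 differences with fructose were 1.0 and 0.97 in normoxia and 0.55 and 0.59 in hypoxia, in WT and KO, all smaller than those of Cyp1b1.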

How the data were processed

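RNA-seq was run on 24 samples of the PMVEC line, with extraction and libraries by Novogene per the labels' protocols. The authors deposited whole-number raw counts per gene, not normalized, with Rnor_6.0 coordinates. HISAT2, DESeq2 and Rnor_6.0 are named in the submitters' processing notes. What program counted the reads, whether by strand, and every version were not given in the sources used here. Reads of antisense, overlapping or near-identical genes therefore cannot be separated. Of the 34523 genes, 1978 carry no name and stayed in totals and tests, and 5 emptied lines are not used here.

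The filterByExpr rule, with a minimum count of 10 and a minimum total of 15, kept 14770 genes. All 24 libraries entered a robust quasi-likelihood fit in edgeR 4.0.16 (R 4.3.3), with TMM factors of 0.909 to 1.0639. It had 16 residual degrees of freedom, and the common biological coefficient of variation was 0.146. P-values were adjusted by Benjamini-Hochberg across the tested genes, with a threshold of 0.05. The method was tested on simulated data. CPM is the count for every 1000000 of the TMM-scaled total. For Cyp1a1, counts were summed over a group and set against library totals.

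The 8 genes were matched by symbol. The members and lists were chosen with earlier results of these data known. Beside the members, the rule for names took Arnt, Hsp90ab1, Nfe2l2, Keap1, Cyp1a2, Cyp2s1, Aldh3a2, Nqo2 and Por whatever their values. For each family of 4 comparisons it took up to 4 higher and 4 lower list genes, ranked by the number of comparisons called and then by their smallest change. It also took the 2 most positive and 2 most negative interactions in each oxygen condition and the 3 genes most like each member. Some genes the rule gives are not reported here, and of the others the genes printed were picked with their values seen. Alternatives were median-ratio size factors, library totals alone, no filter, DESeq2 1.42.0, only the groups compared, a replicate block and leaving out each library.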

Additional observations from a re-analysis of the deposited data

Results flagged for a closer look

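Ahrr, the receptor's repressor, stood out because its genotype difference went opposite ways in the media of normoxia: every KO library lay above every WT library with glucose and below every one with fructose. The gap with fructose was narrow, at 72.5 against 72.8 CPM, and with library totals in place of TMM the genotypes overlapped there. Less the median of its neighbours, the log2 change was 0.55 with glucose and -0.07 with fructose. The log2 change of KO against WT with glucose exceeded that with fructose by 0.58, and this difference was not tested, since the rule used these values.

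The other genes stood out by a test of the difference between the genotypes' sugar changes (log2 change of KO less that of WT, edgeR adjusted p over all genes). In the NRF2 list, with smaller changes in KO, Slc7a11 differed by -1.96 in normoxia and -0.99 in hypoxia (edgeR adjusted p = 3.96e-05 and 0.011), Ftl1 by -1.38 and -1.44 (1.7e-06 and 5.54e-07) and Gclc by -0.74 and -0.55 (0.000253 and 0.00296). Keap1 differed by -0.66 in hypoxia (edgeR adjusted p = 0.000134). Among reductases and conjugating enzymes, Akr1b8 differed by -1.29 and -1.36 (edgeR adjusted p = 0.00519 and 0.00264) and Gstp1 by -0.75 and -1.07 (4.19e-05 and 2.75e-07). Mgst2 differed by -0.53 in hypoxia (edgeR adjusted p = 0.0116), with an adjusted p of 0.106 under library totals. Sim2, a bHLH-PAS relative of the receptor, differed by -1.70 and -1.88 (edgeR adjusted p = 0.00791 and 0.00113). The chaperone Hsp90ab1 differed by -0.66 in hypoxia (edgeR adjusted p = 2.5e-05).

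Other genes had the larger value in KO. Aldh1a3 differed by 0.90 in normoxia and 1.64 in hypoxia (edgeR adjusted p = 0.0054 and 9.77e-06) and the electron carrier Cyb5b by 0.49 and 0.79 (0.00259 and 1.02e-05). In hypoxia Aldh3a2 differed by 0.37, Nqo2 by 1.33 and Afmid, a kynurenine pathway enzyme, by 1.65 (edgeR adjusted p = 0.00225, 0.00752 and 0.00844). In normoxia Cryz, a quinone reductase, differed by 1.09 (edgeR adjusted p = 0.0127).

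Several calls ended when 1 library was left out. In normoxia these were Hsp90ab1 at -0.30 (edgeR adjusted p = 0.0374; up to 0.111 without any of 8 libraries) and Mgst2 at -0.46 (0.0333; up to 0.11 without any of 8). In hypoxia they were Ptgr1 at -0.87 (edgeR adjusted p = 0.026; up to 0.0815 without any of 4) and Serpinb2 at -0.77 (0.0334; up to 0.0863 without any of 7). Within the oxygen condition named, those libraries were as follows. For Hsp90ab1 they were KO fructose replicates 1 and 3, KO glucose replicates 1 and 2, WT fructose replicates 1 and 2 and WT glucose replicates 2 and 3. For Ptgr1 they were KO fructose replicate 3, KO glucose replicate 1, WT fructose replicate 2 and WT glucose replicate 3. For Mgst2 they were KO fructose replicates 1 and 2, KO glucose replicates 1 and 3, WT fructose replicates 2 and 3 and WT glucose replicates 2 and 3. For Serpinb2 they were KO fructose replicates 2 and 3, KO glucose replicates 1 and 2, WT fructose replicates 1 and 2 and WT glucose replicate 3.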

How the results depend on the processing

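Of the pathway list counts, 78 of 84 under another setting and 327 of 336 with 1 library left out stayed within 1.5 times the reported count. In KO hypoxia, 11 list genes were called for sugar, and 23 with a replicate block, 18 with only the groups compared and 18 with DESeq2. In KO normoxia the count of 6 ran from 3 to 6 with 1 library left out. In WT glucose, 8 were called for oxygen, and 5 with no filter, 17 with the replicate block, 4 with only the groups compared and 5 to 11 with 1 library left out. In KO glucose the count of 22 ran from 13 to 23. The cause was not tested. Named list genes kept their call in 2719 of 2854 settings and in 11205 of 11424 with 1 library left out, and the log2 changes of members moved by less than the replicate spread in 576 of 608 and 2263 of 2304. No called value changed sign.

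Samples share only a replicate number: 67 of 84 same-number pairs correlated above 0.1 in their deviations from group means (mean 0.225, lowest -0.0348), and 21 of 24 libraries correlated best with their own number, a hint from the data, not the design. Depth limits Cyp1a1 in every group and Aldh3a1 in KO, where 1 library can carry a value.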
